A study of Mus musculus with 2 samples.

Results

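The mouse haemoglobin genes described here are 8 of the 52550 gene identifiers in the count tables. They were chosen by symbol. Hba-x, Hbb-y and Hbb-bh1 encode the embryonic chains zeta, epsilon-y and beta-h1. Hba-a1, Hba-a2, Hbb-bs and Hbb-bt encode the adult alpha and beta chains, and Hbq1b encodes theta, an alpha-like chain with no well-established role. Levels were measured by Drop-seq. Droplets bring single cells together with beads that capture polyadenylated RNA and tag it with a barcode for the cell and a unique molecular identifier (UMI) for the molecule. A UMI stands for 1 captured RNA whatever its length, so levels are compared between genes in CPM, the UMIs of a gene per 1000000 UMIs. Both libraries came from wild-type CD1 embryos, an outbred mouse stock, at E10.0. The tissue was posterior second heart field, a source of heart progenitors, together with heart tube. About 80 embryos were pooled for each library, so no value belongs to a single embryo. The libraries are biological replicates prepared on separate days and form 1 group, with no mutant or treated arm among them. Comparisons are therefore between kinds of barcode within each library.

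Haemoglobin is a tetramer of alpha-like and beta-like chains. In the mouse the first red cells, the primitive erythrocytes, arise in the yolk sac, enter the circulation while still nucleated, and mature there together while they change the globin genes they use. Definitive red cells arise later in development, mainly from the fetal liver, and use the adult genes, whereas primitive cells start with embryonic chains and take up adult alpha chains alongside them.

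Library 1 held 5000 barcodes with 11958912 UMIs, and library 2 held 7497 barcodes with 14131384 UMIs. The libraries shared 82 barcodes, of which 0 were erythroid. In library 1, many barcodes had the same first 11 bases, so 1 bead may have been counted as several barcodes. Its 160 erythroid barcodes had only 92 distinct starts, while the 147 of library 2 had 147. Counts of barcodes in library 1 may therefore exceed counts of cells. When barcodes with the same start were merged before all filters, a choice made after seeing the data, library 1 had 102 erythroid barcodes with a median of 9005 UMIs and 2445 genes, and library 2 kept its 147. Values of library 1 per barcode depend on this choice, and not every one was recomputed after merging.

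A barcode was called erythroid when at least 15% of its UMIs came from Hba- and Hbb- genes. This left 160 of 3864 kept barcodes in library 1 (4.14%) and 147 of 4743 in library 2 (3.10%). The lowest erythroid barcodes had 23.1% and 20.2% globin, while the highest of the others had 10.7% and 4.09%. Since the globin level chose the barcodes, it is described and not tested. Red cell genes that the choice did not use marked the same barcodes. Together, 7 erythroid markers, among them Klf1 and Gata1, had 3640 and 3521 CPM in erythroid barcodes, against 17.7 and 12.4 CPM in all other kept barcodes. All 7 macrophage markers had 0 UMIs in erythroid barcodes of both libraries, where a count of 0 allows up to 2.78 and 2.75 CPM. In the other kept barcodes these markers summed to 31.8 and 2.81 CPM, so in library 2 the zeros tell little. Of 6 progenitor markers, Kit, Cd34, Ptprc, Myb and Gata2 had 0 UMIs in both. In the other kept barcodes the 6 summed to 39.9 and 42.7 CPM, with Ptprc also at 0 in library 2. Megakaryocyte markers did not separate the barcodes in library 1, with 16.7 CPM in erythroid ones against 13.8 CPM in the others. In library 2 they had 21.0 against 77.6 CPM. Cardiomyocyte markers summed to 119 and 45.8 CPM in erythroid barcodes, against 1558 and 1924 CPM in the others.

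The genes lie in 2 clusters, placed here on GRCm38 with GENCODE M21. On chromosome 11, plus strand, are Hba-x (chr11:32276400-32278116), Hba-a1 (chr11:32283511-32284465), Hbq1b (chr11:32286965-32287784) and Hba-a2 (chr11:32296489-32297298). On chromosome 7, minus strand, are Hbb-y (chr7:103851749-103853216), Hbb-bh1 (chr7:103841637-103843164), Hbb-bs (chr7:103826534-103828096) and Hbb-bt (chr7:103812524-103813996). In both clusters the embryonic genes come first in the direction of transcription. Hba-a1 and Hba-a2 differ at 1 of 429 coding positions, and Hbb-bs and Hbb-bt at 1 of 444. Embryonic and adult genes are easily told apart, since Hbb-y and Hbb-bs are 74.3% identical in coding sequence, Hbb-bh1 and Hbb-bs 74.1%, and Hba-x and Hba-a1 56.7%. How reads matching several genes were counted is not given in the sources used here, so the splits between Hba-a1 and Hba-a2 and between Hbb-bs and Hbb-bt are uncertain, while their sums are less so.

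The promoters below show what the embryonic and adult genes have in common and how those of near-identical copies compare. Each is the 120 bases before the RefSeq start on GRCm38.p6, read in the direction of transcription, and 7 of the 8 genes matched the table, with no entry found for Hbb-bh1. Capitals mark matches to CACCC (reverse strand GGGTG), to CCAAT (reverse strand ATTGG) and to TATAA (reverse strand TTATA). Matches in Hbb-bt overlap where CCAAT follows its own reverse. A match is a description of the letters only.
Hba-x, chr11:32276480-32276599, plus strand: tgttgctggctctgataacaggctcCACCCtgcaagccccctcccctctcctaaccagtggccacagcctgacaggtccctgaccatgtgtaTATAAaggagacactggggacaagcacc
Hba-a1, chr11:32283552-32283671, plus strand: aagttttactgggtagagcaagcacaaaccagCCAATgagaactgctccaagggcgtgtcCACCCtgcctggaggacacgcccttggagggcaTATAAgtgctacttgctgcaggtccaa
Hba-a2, chr11:32296372-32296491, plus strand: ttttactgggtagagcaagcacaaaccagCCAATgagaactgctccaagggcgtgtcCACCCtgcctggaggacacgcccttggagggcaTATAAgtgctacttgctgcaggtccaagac
Hbb-y, chr7:103853208-103853327, minus strand: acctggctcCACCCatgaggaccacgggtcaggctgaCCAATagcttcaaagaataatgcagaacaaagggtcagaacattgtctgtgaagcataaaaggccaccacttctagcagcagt
Hbb-bs, chr7:103827929-103828048, minus strand: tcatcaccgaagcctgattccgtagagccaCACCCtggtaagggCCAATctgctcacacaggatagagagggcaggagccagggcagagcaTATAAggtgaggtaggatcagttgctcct
Hbb-bt, chr7:103813924-103814043, minus strand: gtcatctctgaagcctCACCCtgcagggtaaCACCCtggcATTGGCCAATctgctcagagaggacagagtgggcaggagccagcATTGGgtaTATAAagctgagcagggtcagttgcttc

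A CACCC, the letters that the red cell factor KLF1 reads, was present before 6 of the 7 genes, Hbq1b being the exception. Of all 32851 promoter windows of this length, 31.7% held it. CCAAT was present in 5 of the 7 windows, against 21.3% of all windows, and was missing from Hba-x and Hbq1b. TATAA was present in 5 of the 7, against 11.8% of all, and was missing from Hbb-y and Hbq1b. The Hbb-y window holds CATAA, which differs from TATAA in the first base and was not counted. The letters AGATAA, a form of the site read by GATA1, were found in 0 of the 7 windows on either strand (reverse TTATCT), against 4.36% of all windows. Only this form was searched, so other forms of the site may be present. The Hba-x window above holds TGATAA, which differs from it in the first base and was not counted. Aligned, the windows of Hba-a1 and Hba-a2 had 117 identical bases over 123 columns (95.1%). The remaining columns were overhangs at the window ends, where the annotated starts are offset, and no base in the overlap differed. Far more UMIs were nevertheless assigned to Hba-a1. The windows of Hbb-bt and Hbb-bs were 72.7% identical.

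Embryonic genes made up most of the globin RNA at E10.0. In erythroid barcodes, 38.8% of UMIs in library 1 (exact 95% interval 38.7 to 38.8) and 44.0% in library 2 (43.9 to 44.1) came from Hba- and Hbb- genes. These intervals, like all others here, cover counting error only. Hba-x, Hbb-y and Hbb-bh1 together gave 87.2% and 89.9% of the globin UMIs, 88.6 ± 1.89% on average (SD, n = 2). There were 6.83 embryonic UMIs for each adult one in library 1 and 8.91 in library 2.

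Hbb-y, the epsilon-y chain, had the highest level, 135681 CPM in library 1 and 171966 CPM in library 2. Hbb-bh1, the beta-h1 chain, had 103025 and 118566 CPM. Hba-x, the zeta chain, had 97797 and 103774 CPM. Hbb-y stood above the other embryonic genes in both libraries. Hbb-bh1 stood above Hba-x within each library, though their ranges over the libraries overlapped. Their means were 110795 ± 10989 CPM for Hbb-bh1 and 100785 ± 4226 CPM for Hba-x (SD, n = 2 each).

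Hba-a1, adult alpha, followed with 45807 and 41251 CPM and was the only adult gene near the embryonic ones. Hbb-bs, adult beta, had 2743 and 2492 CPM, and Hbb-bt, its neighbour copy, had 659 and 474 CPM. Hbq1b had 88.2 and 102 CPM, from 95 and 111 UMIs. Hba-a2 had 39.0 and 37.5 CPM, from 42 and 41 UMIs, subject to the uncertain split from Hba-a1. The order of these genes was the same in both libraries, and no ranges overlapped among them.

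**Figure D1:**
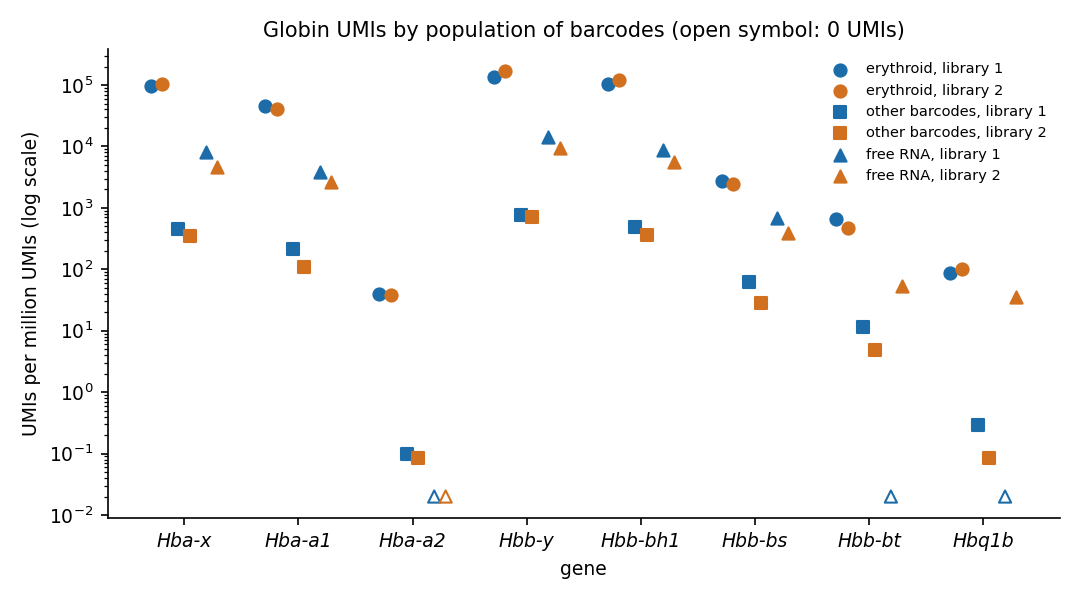
Levels of the 8 haemoglobin genes in CPM (log axis), 1 point per library, in erythroid barcodes, other kept barcodes and free RNA, with open symbols for 0 UMIs. In erythroid barcodes the levels run from 39.0 and 37.5 CPM for Hba-a2 to 135681 and 171966 CPM for Hbb-y.

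The adult share differed widely between the alpha and beta sides. Hba-x gave 68.1% of alpha-like UMIs in library 1 (67.9 to 68.3) and 71.5% in library 2 (71.3 to 71.8), so adult alpha made up the remainder on that side. Hbb-bs and Hbb-bt together gave only 1.41% of beta-like UMIs in library 1 (1.36 to 1.45) and 1.01% in library 2 (0.976 to 1.05). The last value depended on few barcodes. Without the barcodes that carried mainly adult beta, described below, the mean was 0.935%, against 1.21 ± 0.279% (SD, n = 2) with them, and it was 1.57% after merging barcodes with the same start.

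Between the embryonic beta genes, Hbb-bh1 gave 43.2% (43.0 to 43.4) and 40.8% (40.6 to 41.0) of the UMIs. Alpha-like genes together gave 37.2% and 33.1% of all globin UMIs, 35.2 ± 2.94% (SD, n = 2), so beta-like RNA was the larger pool in both libraries. The libraries differed beyond counting error in each of these shares, and the cause was not tested.

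Single barcodes carried these genes together in rather even proportions. The Hbb-bh1 share of embryonic beta had a median of 43.4% in library 1, with 10th and 90th percentiles of 39.1 and 47.5%. In library 2 the median was 40.2%, with 35.8 and 45.3%. Its variance over barcodes was 5.47 and 8.93 times that of binomial counting, so barcodes differed in it, but within a narrow span.

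The Hba-x share of alpha-like UMIs was spread differently in each library. Its median was 67.2% in library 1 and 79.1% in library 2, with 10th to 90th percentiles of 60.8 to 76.2% and 59.4 to 84.2%. In library 2, 112 barcodes had at least 72% and 34 had 52 to 72%, of which only 4 had over 68%. In library 1, 42 barcodes had at least 72% and 117 had 52 to 72%, of which 32 had over 68%. Its variance over barcodes was 14.8 and 61.6 times binomial counting, and 12.5 and 51.5 times without the barcodes that carried mainly adult beta. With barcodes merged it was 37.6 in library 1. That value includes barcodes with almost no Hba-x, the lowest at 0.385%, and was not recomputed without them. In library 2, barcodes with a high Hba-x share had fewer UMIs (Pearson correlation -0.47 over 146 barcodes) and more globin (0.39). In library 1 the correlations were 0.03 and -0.09 over 159 barcodes as deposited, and -0.29 and -0.27 over 100 with barcodes merged. The 2 embryonic shares moved with each other by 0.29 in library 1 and -0.17 in library 2, so no common order of barcodes emerged. These correlations share the same counts and depth and are descriptions only.

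The ratio of embryonic to adult globin RNA was higher in the median barcode than in the sums in library 2, and close to it in library 1. The median barcode had 7.01 embryonic UMIs for each adult one in library 1 and 15.0 in library 2, against 6.83 and 8.91 in the sums. Adult beta was rare in most of them, with a median of 0.536% and 0.414% of beta-like UMIs, but reached 99.6% and 99.7% in single barcodes.

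**Figure D2:**
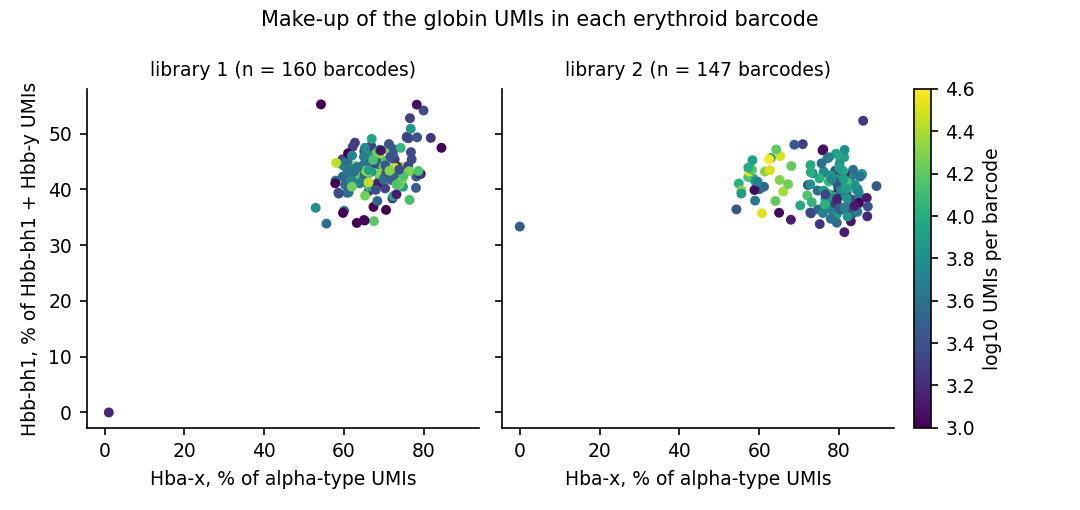
Hba-x share of alpha-like UMIs (horizontal) and Hbb-bh1 share of embryonic beta (vertical) in percent, 1 point per erythroid barcode, coloured by log10 of its UMIs. Hba-x shares have medians of 67.2% in library 1 and 79.1% in library 2, and Hbb-bh1 shares have medians of 43.4% and 40.2%.

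Most adult beta RNA of the libraries sat in a small set of barcodes that were mostly lost to the filter on genes detected. Among all barcodes over 200 UMIs that met the 15% gate, 29 of 266 in library 1 and 22 of 184 in library 2 took at least 50% of their beta-like UMIs from Hbb-bs and Hbb-bt. They are called adult-type here and the others embryonic-type. The 50% line was drawn after the values were seen and defines the difference in beta chains, which is not tested. Only 1 barcode in library 1 and 0 in library 2 lay between 10 and 90%. Adult-type barcodes had a median adult share of beta of 99.3 and 99.4%, against 0.724 and 0.318% in embryonic-type ones. The 29 adult-type barcodes of library 1 had 24 distinct starts, and the 22 of library 2 had 22.

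The alpha side, which the split did not use, followed the same line. Hba-x gave a median of 0.602% and 0% of alpha-like UMIs in adult-type barcodes, against 68.6 and 79.1% in embryonic-type ones. Summed over adult-type barcodes, Hba-a1 had 5337 and 4958 UMIs while Hba-x had 42 and 16. Hbb-y had 79 and 35 UMIs there, and Hbb-bh1 had 61 and 33. Hbq1b had 0 UMIs of 29538 and 20751, which allows a share of up to 0.0102% and 0.0145%. The balance of the adult beta copies was alike in both kinds, with Hbb-bs at 83.1 ± 0.570% in adult-type and 82.9 ± 2.92% in embryonic-type barcodes (SD, n = 2 libraries each).

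Adult-type barcodes had little RNA beside globin. Their median globin share was 83.7 and 81.9%, against 38.7 and 47.8% in embryonic-type barcodes. Their medians were 645 and 701 UMIs and 136 and 109 genes, against 2067 and 5232 UMIs and 898 and 1428.5 genes. At least 400 genes were detected in 3 and 1 of them, against 177 and 147 embryonic-type barcodes. These few barcodes held 76.1 and 79.8% of all Hbb-bs UMIs in their library and 73.8 and 82.4% of all Hbb-bt UMIs. They held 8.94 and 9.50% of Hba-a1, but only 0.036 and 0.013% of Hba-x. Embryonic-type barcodes held 85.9 and 85.8% of Hba-a1 and 94.7 and 94.6% of Hba-x.

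**Figure D3:**
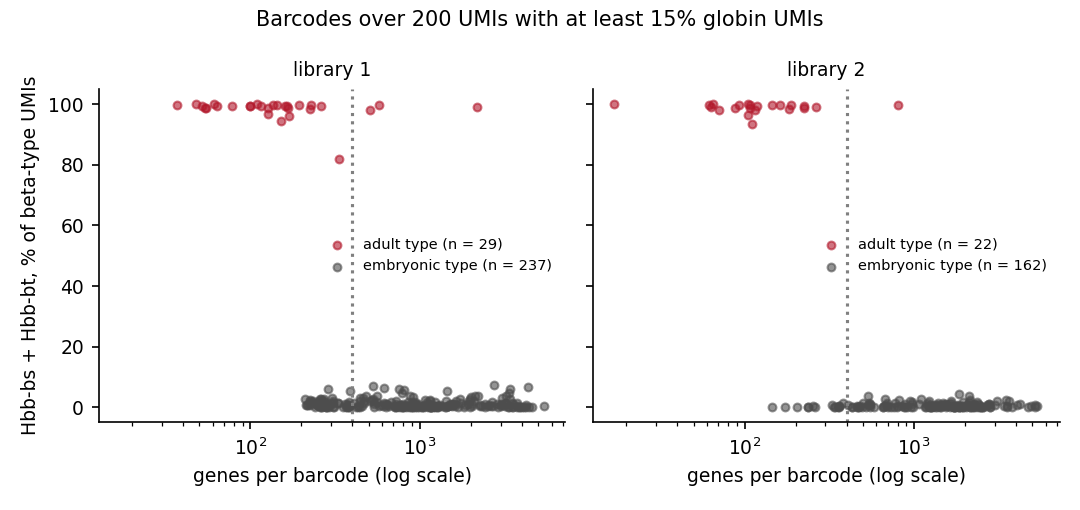
Barcodes over 200 UMIs at the 15% gate in each library, 1 point each, by genes detected (log axis) and adult share of beta-like UMIs in percent; the dotted line marks 400 genes. Adult-type barcodes (29 and 22) sit apart from embryonic-type ones (237 and 162), with medians of 136 and 109 genes against 898 and 1428.5.

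The remaining RNA of the adult-type barcodes was examined for the genes of the lists, and the genes named in this paragraph were chosen after their values were seen. In the 26 and 21 adult-type barcodes with under 400 genes, 3915 and 3112 UMIs were not globin. Alas2, the first enzyme of haem synthesis in red cells, had 63 UMIs in each library. That was 16092 and 20244 CPM, counted here over non-globin UMIs, against 1828 and 1970 CPM in embryonic-type barcodes. With the 3 and 1 adult-type barcodes of at least 400 genes included, Alas2 had 8984 and 15632 CPM. Bnip3l, which directs the clearance of mitochondria from maturing red cells, had 8 and 10 UMIs, or 2043 and 3213 CPM, against 190 and 185 CPM. The other 11 haem synthesis genes together had 9 and 14 UMIs in these adult-type barcodes, or 2299 and 4499 CPM, against 9608 and 10001 CPM in embryonic-type ones. The iron list had 71 and 45 UMIs, or 18135 and 14460 CPM, against 22830 and 24320 CPM. The membrane list had 17 and 14 UMIs, or 4342 and 4499 CPM, against 5903 and 5955 CPM. Alas2 and Bnip3l were thus above their embryonic-type levels, while the other haem synthesis genes and the iron list had lower values. The membrane list had lower values too, but on too few UMIs to place it below its embryonic-type level. Klf1 and Gata1, red cell transcription factors, had 0 UMIs in both, which allows up to 766 and 964 CPM. In embryonic-type barcodes Klf1 had 520 and 530 UMIs and Gata1 had 143 and 148. At this depth the absence of either factor cannot be shown.

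Globin RNA was also found outside erythroid barcodes, at a low and rather even level. In other kept barcodes it made up 0.201% of UMIs in library 1 (0.198 to 0.203) and 0.156% in library 2 (0.154 to 0.158). Erythroid and other barcodes had median depths of 3464 and 5916 UMIs, against 1316.5 and 1458.5. With barcodes merged, library 1 had medians of 9005 and 1771.5 UMIs. Among the 11 other named classes, the share ran in library 1 between 0.103% in foregut endoderm-like and 0.221% in surface ectoderm-like barcodes. In library 2 it ran between 0.117% in cardiomyocyte-like and 0.174% in neural tube-like ones. Unnamed clusters had 0.743 and 0.374%, and 1 of them, with 735 and 883 barcodes and a median of 730.5 UMIs, was led by Hba-a1, Hbb-bh1, Hba-x and Hbb-y. Globins were not used to form the clusters.

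Free RNA, read from the 117 and 333 barcodes with 10 to 200 UMIs, had a higher globin share than the other kept barcodes. These sets are not alike, since the globin gate removed globin-rich barcodes from the other kept ones but not from free RNA. Adult-type barcodes had as few as 294 UMIs in library 1 and 201 in library 2. Small red cell barcodes may therefore be part of free RNA, which was not tested. It held 3.60% (3.22 to 4.02) and 2.29% (2.17 to 2.42) globin, from 314 and 1270 UMIs. The make-up was close to that of erythroid barcodes on the alpha side of library 1, where Hba-x gave 68.1% in erythroid barcodes, 68.0% in other barcodes and 67.6% (57.8 to 76.4) in free RNA. In library 2 it gave 71.5% in erythroid barcodes, 76.1% in other barcodes and 63.7% (58.9 to 68.4) in free RNA. Adult beta was 1.41 and 1.01% of beta-like UMIs in erythroid barcodes, against 5.59% (5.20 to 5.99) and 3.04% (2.75 to 3.35) in other barcodes. In free RNA it was 2.87% (1.06 to 6.14) and 2.91% (1.89 to 4.27). Other barcodes thus had a larger adult part of beta than the kept erythroid barcodes in both libraries, beyond counting error. The part of adult-type barcodes in this was not tested.

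The genes expressed together with the globins were compared over sums of UMIs per library and class, as erythroid barcodes against the mean log level of the 11 other named classes. With edgeR's quasi-likelihood test, Benjamini-Hochberg adjustment and the library as a block, 24.4% of the 11357 genes tested were higher and 26.6% lower in erythroid barcodes at an adjusted p under 0.05. These shares depend on scaling. TMM scaling (edgeR's trimmed mean of log ratios) raised erythroid levels by 0.96 and 1.08 log2 units relative to plain UMIs. With UMIs per sum alone, 581 genes were higher and 7337 lower, and the median of all genes was -1.17, against -0.17 with TMM. Each direction below was therefore read under both scalings. CPM values are on the plain scale, and log2 fold changes are on the TMM scale.

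Haem synthesis, which makes the oxygen-binding group of haemoglobin, rose as a list: 11 of 12 tested genes were higher and 1 lower, with a median log2 fold change of 4.33, and the counts were the same without TMM. Alas2 had 1151 and 1106 CPM in erythroid barcodes, against 4.31 and 2.60 CPM in the other classes (log2 fold change 9.37 ± 0.11 SE). Alad, the next enzyme of the pathway, had 1496 and 1377 CPM, against 112 and 118 CPM (4.68 ± 0.06 SE). The member that fell was Alas1, the form of the first enzyme used outside red cells. It had 2.78 and 5.49 CPM in erythroid barcodes, against 32.0 and 30.6 CPM (log2 fold change -1.85 ± 0.41 SE, edgeR adjusted p = 1.2e-04).

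Of 12 tested genes for iron uptake and storage, 9 were higher and 1 lower, and 3 were lower without TMM. Fth1, the heavy chain of ferritin, had 7675 and 7742 CPM in erythroid barcodes, against 1227 and 1417 CPM. Slc25a37, which carries iron into mitochondria, had 835 and 973 CPM, against 22.5 and 20.9 CPM. Tfrc, the transferrin receptor, had 554 and 489 CPM, against 87.1 and 76.8 CPM. These 3 genes rose by log2 values of 3.57, 6.40 and 3.79. Red cell enzymes rose in 7 of 7 tested genes, 5 of them without TMM. Among them Car2, a carbonic anhydrase, had 2784 and 2208 CPM in erythroid barcodes, against 29.2 and 26.8 CPM.

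All 17 tested red cell membrane genes were higher under both scalings, with the highest list median, 8.16 on the log2 scale. Slc4a1, the band 3 anion exchanger of the red cell membrane, had 699 and 623 CPM in erythroid barcodes, against 2.60 and 1.93 CPM (log2 fold change 9.63 ± 0.14 SE). Of 11 tested erythroid transcription factors, 10 were higher and 0 lower, and 9 were higher without TMM. Klf1, which activates adult beta globin among many red cell genes, had 465 and 480 CPM, against 2.21 and 1.26 CPM. Gata1 had 131 and 135 CPM, against 0.127 and 0.419 CPM.

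Regulators known from studies of the switch between globin genes did not rise together. Of 16 tested, 2 were higher and 7 lower with TMM, and 2 higher and 10 lower without it, with a median log2 fold change of -0.77. The higher ones were Klf1 and Zbtb7a, a repressor of fetal globin in humans (2.09 ± 0.22 SE). Igf2bp1, an RNA-binding protein that favours fetal globin when raised in human cells, was lower. It had 103 and 89.7 CPM in erythroid barcodes, against 454 and 449 CPM (log2 fold change -1.19 ± 0.11 SE). Lin28b, a heterochronic RNA-binding protein, was lower, with 16.7 and 15.6 CPM against 90.5 and 62.5 CPM (-1.05 ± 0.26 SE). Chd4 and Hdac2, of the chromatin-modifying NuRD complex, were also lower (-0.80 and -1.02), and Chd4 did not pass without the library block (edgeR adjusted p = 0.098). Bcl11a, which silences embryonic and fetal globin genes, had 0 and 1 UMIs in erythroid barcodes, and its partner Sox6 had 0 and 0. The other named classes together had 136 and 104 UMIs of Bcl11a and 107 and 91 of Sox6. Neither difference passed the edgeR test (adjusted p = 1). That test used the mean log level of the other named classes, so a gene confined to a few of them can go uncalled. It therefore does not decide whether either gene was lower in erythroid barcodes.

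The lists for cell division, ribosomal proteins and organelle clearance gave no direction that held under both scalings. For S phase, 9 of 20 were higher and 3 lower with TMM, against 0 higher and 18 lower without it. For G2 and M phase, 14 of 22 were higher and 1 lower, against 2 and 16. For cytosolic ribosomal proteins, 71 of 83 were higher and 2 lower, against 3 and 48. For organelle clearance, 3 of 11 were higher and 2 lower, against 1 and 8. Mki67, a marker of dividing cells, was higher under both, with 809 and 349 CPM in erythroid barcodes, against 438 and 154 CPM.

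**Figure D4:**
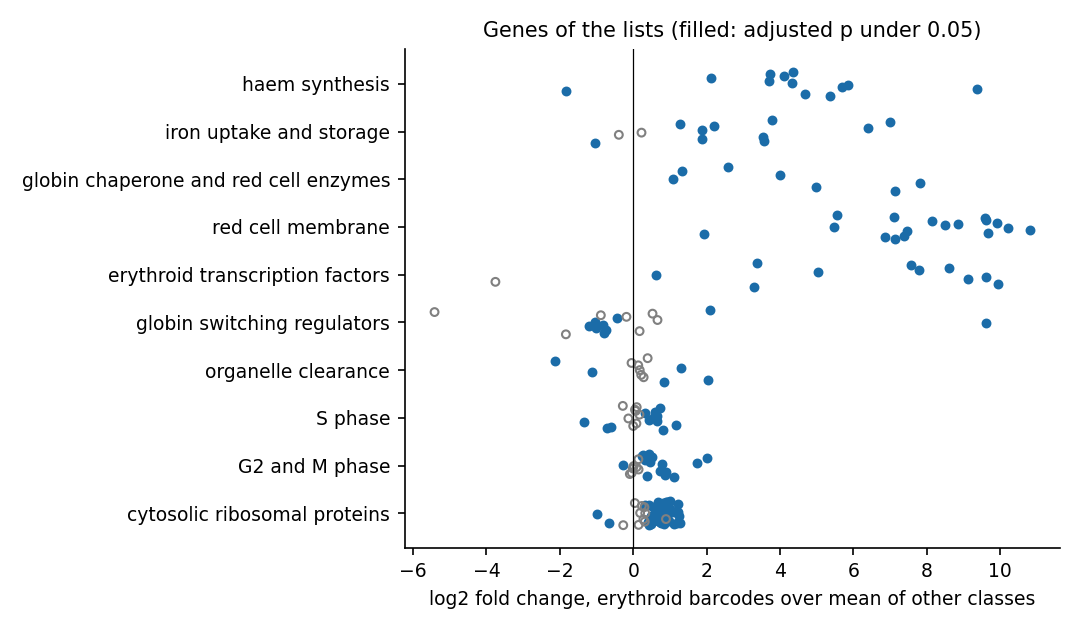
Log2 fold change of each tested list member in erythroid barcodes against the mean of the other named classes (edgeR, TMM scaling), with filled points for an adjusted p under 0.05. Membrane, haem and erythroid factor genes lie highest, and the S phase, G2 and M phase, ribosomal and organelle clearance lists turn lower without TMM.

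Among genes outside the lists, the 10 largest rises were in Trim10, Ncf4, Slc30a10, Hemgn, Aqp3, Krt15, Tspan32, Redrum, Pklr and Cited4. Trim10, a factor of terminal red cell maturation, had 226 and 216 CPM in erythroid barcodes, against 0.293 and 0.599 CPM (log2 fold change 10.35 ± 0.26 SE). Hemgn, a nuclear protein of blood progenitors, had 581 and 359 CPM and a log2 fold change of 9.64. Aqp3, a water and glycerol channel, had a log2 fold change of 9.61, and Cited4, a transcriptional co-activator, had 8.99. Pklr is the red cell pyruvate kinase, Ncf4 a subunit of the phagocyte oxidase and Krt15 an epithelial keratin. The 10 largest falls were in Amotl2, Cttnbp2nl, Flrt3, Gjc1, Sept10, Kdr, Sox9, Loxl2, Cpe and Fbln1. Fbln1, a matrix protein, had a log2 fold change of -5.31. Kdr, the endothelial VEGF receptor, had 0 UMIs in erythroid barcodes of both libraries. Over the 24 sums of library and class, the genes most like summed globin were Slc25a37 (Pearson correlation 0.976 of log2 of CPM plus 1), Rhag (0.975), Bpgm (0.975), Epb42 (0.973), Slc30a10 (0.970), Ncf4 (0.967), Ermap (0.963) and Gata1 (0.960). The sums of 1 library share its depth and its free RNA, so these are descriptions.

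Few genes moved with the balance of the embryonic beta genes. Erythroid barcodes were split within each library into 3 bins by the Hbb-bh1 share, with medians of 40.5, 43.4 and 46.6% in library 1 and 36.8, 40.4 and 43.5% in library 2. Median globin shares over these bins were 41.2, 39.0 and 36.6% of UMIs in library 1 and 49.2, 48.8 and 44.3% in library 2. Depth moved too, with medians of 3490, 4132 and 2593 UMIs in library 1 and 4027, 6796 and 7588.5 in library 2. Ribosomal proteins differed between top and bottom bin by a median of 0.005 log2 units in library 1, with 39 of 76 above 0. In library 2 this was 0.40, with 67 of 76 above 0. The part of depth in the trends was not tested. By edgeR's quasi-likelihood test of a linear trend, 0.0251% of 3984 genes rose and 0.1% fell at an adjusted p under 0.05, 5 genes in all. DESeq2 called 1 and a fit with no library block called 0. At an unadjusted p under 0.05, edgeR found 267.

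Malat1, a nuclear long non-coding RNA, fell most firmly. It had 823, 496 and 476 CPM over the bins of library 1 and 720, 337 and 307 CPM in library 2. Its slope was -0.58 ± 0.08 (SE) log2 units per bin (edgeR adjusted p = 1.05e-04), and it passed in each library alone. Ermap, a red cell membrane protein, had 285, 229 and 194 CPM in library 1 and 296, 191 and 149 CPM in library 2. Its slope was -0.45 ± 0.10 (edgeR adjusted p = 0.042). Tomm5, a part of the mitochondrial import pore, had 53.8, 85.4 and 130 CPM in library 1 and 35.0, 82.3 and 140 CPM in library 2. Its slope was 0.70 ± 0.15 (edgeR adjusted p = 0.039). Cox6b2 and Ttc3 also fell (edgeR adjusted p = 0.042 each). Without library 2, Tomm5, Ermap, Cox6b2 and Ttc3 lost their calls (edgeR adjusted p = 0.52, 0.65, 0.51 and 0.82), and without library 1 Cox6b2 lost its own (0.0999).

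None of the globins that took no part in defining these bins passed the test. Hba-x had 100495, 100171 and 92174 CPM over the bins of library 1 and 111006, 112156 and 93448 CPM in library 2. Its slope of -0.16 ± 0.04 (SE) did not pass the edgeR test (adjusted p = 0.17), though it passed with split barcodes merged (-0.15, edgeR adjusted p = 0.037). Hba-a1 had a slope of -0.06 (edgeR adjusted p = 0.83) and Hbb-bs of -0.06 (0.95). No list had more than 1 member called.

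Splitting by the Hba-x share of alpha in place of the Hbb-bh1 share gave 0% of 3908 genes in either direction, by edgeR and by DESeq2, with 291 at an unadjusted p under 0.05 by edgeR. Bin medians of the Hba-x share were 62.1, 67.3 and 73.9% in library 1 and 64.2, 79.1 and 83.0% in library 2. Adult beta did not pass the test. Hbb-bs had 2994, 3460 and 1737 CPM in library 1 and 3236, 2398 and 1008 CPM in library 2, with a slope of -0.59 ± 0.12 (edgeR adjusted p = 0.27). The lowest bin held the 1 adult-type barcode of each library. With adult-type barcodes left out, Hbb-bs had 1513, 3460 and 1737 CPM in library 1 and 1595, 2358 and 1006 CPM in library 2, with a slope of -0.09 ± 0.18 (edgeR adjusted p = 0.96). With barcodes merged and adult-type ones kept, the slope was -0.86 ± 0.10 (edgeR adjusted p = 4.93e-04). Without the adult-type barcodes the top bin was the lowest in library 2 but not in library 1. Both alternatives were added after seeing the data. Library 2 stood apart in this split: alone it gave 102 calls, all lower, against 12 in library 1 alone. Ribosomal proteins differed between top and bottom bin by a median of -0.82 log2 units in library 2, with 9 of 72 above 0, and by -0.11 in library 1, with 24 of 72 above 0. Depth moved with the bins of library 2, with medians of 9355, 5815 and 5195 UMIs, and its part in these values was not tested.

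**Figure D5:**
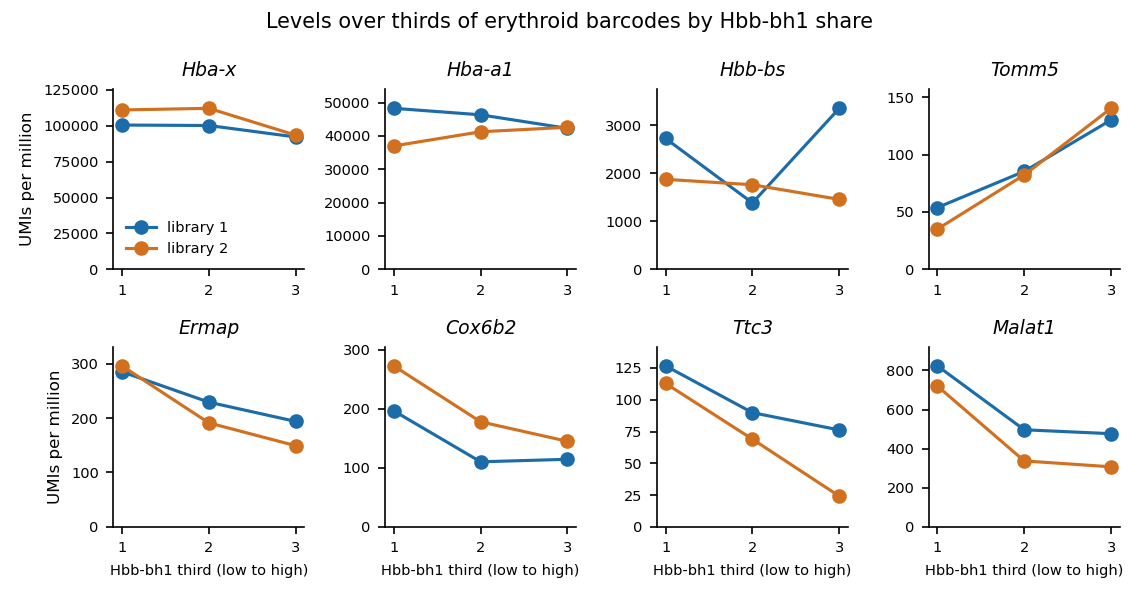
CPM over 3 bins of rising Hbb-bh1 share in each library for 3 globins and the 5 genes with a trend, as 1 line per library. Malat1 falls over the bins in both libraries, while Hba-a1 and Hbb-bs show no slope that passed the test.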

How the data were processed

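UMI counts per gene and barcode were used as the authors deposited them, as raw whole numbers. Per the submitters' processing notes the build was mm10 and Scanpy was used. Aligner, counting tool and barcode choice: not given in the sources used here. Both libraries belong to 1 group. The filter asked for 400 genes or more and no more than 10% mitochondrial UMIs (4038 and 4934 barcodes). Doublet scores from Scrublet (expected rate 6%) marked 0 and 1 barcodes, under 0.5%. Barcodes with a score above the cut for the highest 5% were therefore removed. These were 174 and 191, under 5%, since scores equal to the cut were kept. Of those removed, 17 in library 1 and 1 in library 2 met the 15% globin gate. Barcodes under the 15% globin gate were clustered with Scanpy 1.11.5 (2000 variable genes without globins, mitochondrial, ribosomal and listed genes, 30 components, 20 neighbours, Leiden resolution 1) and named "-like" from at least 3 markers raised 2-fold.

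UMIs were summed per library and class or bin and tested with edgeR 4.0.16 in R 4.3.3 (quasi-likelihood, two-sided, TMM, filterByExpr, Benjamini-Hochberg over all genes), with 11 residual degrees of freedom for classes and 3 for trends, and DESeq2 1.42.0 as an alternative. Library deviations correlated between classes by 0.490 to 0.840 and between bins by 0.442 to 0.537. Sums of 1 library share its embryos and day, so the library entered as a block. Classes and bins come from the same libraries, so p-values describe these libraries and not groups of animals. The libraries' gene totals differed far beyond counting error, with a ratio of chi-square to degrees of freedom of 22.96. The class contrast and the Hbb-bh1 and Hba-x trends were tested on simulated counts with an assumed spread. The class contrast recovered 30% of 2-fold and 76% of 4-fold changes, with 4 false calls among 11157 unchanged genes. Each trend recovered 79% of 2-fold and 90% of 4-fold changes per bin. False calls were 8 of 3784 for Hbb-bh1 bins and 10 of 3708 for Hba-x bins. Real changes, small ones above all, can therefore go uncalled.

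Bins needed 50 UMIs of Hbb-bh1 and Hbb-y together. Named genes were the 8 members, per direction the 10 largest called changes with the same sign in both libraries and at least 50 CPM, the 4 smallest adjusted p of each list, and the 8 genes most like summed globin. Text examples come from these, and other list members are named after their values were seen. The members and lists were chosen with earlier results of these data known. Merging of barcodes on 11 bases, omission of adult-type barcodes and plain UMI scaling were chosen after seeing the data. Shares carry exact (Clopper-Pearson) 95% intervals, and limits for 0 UMIs use 3 counts. Ahsp had no row.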

Additional observations from a re-analysis of the deposited data

How the results depend on the processing

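Across gates of 10 and 30%, a lower gene minimum, doublets kept, barcodes merged and adult-type barcodes left out, the Hba-x share of alpha, the Hbb-bh1 share of embryonic beta and the alpha share moved by no more than 1 SD. The embryonic to adult ratio was 10.45 as a mean over barcodes, against 7.87 in the sums. Adult beta, 1.21% of beta, was 1.94% with at least 200 genes, 1.66% with doublets kept, 1.57% with barcodes merged and 1.60% as a mean over barcodes. Globin in other barcodes, 0.178%, was 0.256% with a 30% gate. With plain UMI scaling 581 genes were higher and 7337 lower in erythroid barcodes, against 2773 and 3023, and 5 named genes turned: Bnip3l (-0.19), Tyms (-0.28), Mcm6 (-0.37), Birc5 (-0.16) and Ccnb1 (-0.12). The count of 5 genes moving with the Hbb-bh1 share was 1 by DESeq2, 11 with no filter, 3 at 20 CPM, 3 with at least 200 genes, 2 with 2 bins, 9 with 5 bins, 0 with bins by Hba-x, and 11 to 17 in 1 library alone. With Hba-x bins the count of 0 was 26 with no filter and 12 to 102 in 1 library alone. It stayed 0 with adult-type barcodes left out (12 to 102 in 1 library alone) and with barcodes merged (13 to 102). The Hba-x slope over Hbb-bh1 bins, -0.16, passed with a 30% gate (-0.18, edgeR adjusted p = 0.041), merged barcodes (-0.15, 0.037) and 5 bins (-0.21, 0.016). For single named genes, 962 values kept direction and call, 35 lost the call and 5 turned, over 67 results. Beyond what the settings themselves change, the cause was not tested.

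Without the replicate block, 2216 genes were higher and 2494 lower in erythroid barcodes, and 0 moved with the Hbb-bh1 share. The erythroid contrast could not be tested in 1 library alone, since no residual degrees of freedom were left. Trends in 1 library alone rest on 1 residual degree of freedom. Depth limits Hba-a2 and Hbq1b, with about 100 UMIs or fewer, and the non-globin genes of adult-type barcodes.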
